A study of Mus musculus with 12 samples.

Results

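The 33 genes described here code for the enzymes and transporters that carry glucose to lactate, for the oxygen-regulated factor HIF-1α and for a set of its known targets. They were chosen by name, as listed glycolysis and hypoxia response genes, with earlier results of these data known. All 33 were found among the 49585 genes of the count table, and all 33 had enough counts to be among the 16318 genes tested. RNA was sequenced from calvarial osteoblast cultures, bone-forming cells grown out of the skull bones of C57BL/6J pups taken 3 to 5 days after birth. The 4 groups were WT on day 1, Bcl3-/- on day 1, WT on day 3 and Bcl3-/- on day 3, each with 3 libraries, where the day counts from the change to osteogenic medium. Every culture, controls included, received that medium, with 50 µg/ml of ascorbic acid and 2 mM β-glycerophosphate. A culture pooled up to 3 calvariae, and the 6 cultures, 3 of each genotype, carry the same codes on both days.

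Glycolysis splits glucose into pyruvate in the cytosol, and lactate dehydrogenase then turns much of that pyruvate into lactate, which leaves the cell through monocarboxylate transporters. When oxygen is scarce, HIF-1α escapes hydroxylation by the prolyl hydroxylases and degradation, pairs with ARNT and binds the letters ACGTG near its target genes, many of which code for glycolytic enzymes. Osteoblasts are known for taking up glucose through GLUT1 and for releasing lactate also when oxygen is present, and HIF-1α with its target VEGF couples bone formation to the growth of blood vessels.

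Gene counts per library ran from 20009732 to 41953891, with a median of 31792039. Levels are given as TMM-normalized CPM, counts scaled to the library total after edgeR's trimmed mean of M-values, and a gene was called at an adjusted p under 0.05. Osteoblast markers, 12 genes, were present in every library. On day 1 they summed to 40270 to 57010 CPM for WT and 67370 to 69290 CPM for Bcl3-/-. On day 3 the sums were 76250 to 82310 CPM and 77880 to 82410 CPM. Marker sums are scaled to the library total without TMM factors. Bcl3, the targeted gene, did not separate the genotypes on day 1, at 17.95, 21.8 and 17.8 CPM for WT against 17.5, 19.7 and 19.2 CPM for the libraries labelled Bcl3-/-. On day 3 it stood at 14.8, 15.9 and 12.8 CPM against 10.2, 9.72 and 8.31 CPM, so each direction by genotype below rests on the labels. The summed level of 8 markers of dividing cells moved in every pairwise comparison. On day 1 it was 1507 to 1666 CPM for WT against 1249 to 1313 CPM for Bcl3-/-, and on day 3 it was 717 to 822 CPM against 531 to 536 CPM. Of the 8 genes, 3 were called lower by genotype on day 1, beside 6.26% of all tested genes, and the others were not called. All 8 were called lower by genotype on day 3, beside 5.6% of all tested genes. Over time all 8 were called lower in WT and in Bcl3-/-, beside 17.9% and 17.2%. The 14 macrophage markers summed to 359 to 557 CPM and 403 to 436 CPM on day 1 and to 758 to 1135 CPM and 445 to 930 CPM on day 3, in WT and Bcl3-/- respectively. The part of these cells in the results below was not tested, and in bulk RNA fewer cells of a type and less RNA per cell cannot be told apart. Nothing in the labels says whether the 3 cultures of a group came from separate litters, so p-values measure the spread between these cultures.

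The letters ACGTG on either strand, a form of the core of the hypoxia response element, were searched in the 250 bases before each start site. Other forms of the core were not searched. The promoters came from a table of RefSeq genes on GRCm38.p6. Of the 31 members in that table, 18 (58.1%) held ACGTG, against 4998 of 27025 genes (18.5%) in all. The members were picked as glycolysis genes and known HIF targets, so the comparison is a description and not a test. The 27025 genes were not limited to those tested here. The 31 members had 45 start sites, and the 27025 genes had 32851. Genes with several start sites had more than 1 window, and part of the matches overlap the E-box CACGTG, which 6 of the 31 members (19.4%) and 6.86% of all genes held. Slc2a3 and Ndrg1 are not in the table. The windows printed below come from members that differ in how they moved: Bnip3, Hif1a and Pfkm were higher on day 3 in WT, Hk2 and Ldha were lower, Pgam1 was lower in the libraries labelled Bcl3-/- on both days, and Pgk1 was called in no comparison. Capitals mark ACGTG, its reverse complement CACGT, or the CACGTG that contains both.
Bnip3, chr7:138909589-138909634, minus strand: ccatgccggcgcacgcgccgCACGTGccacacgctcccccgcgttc
Hif1a, chr12:73907712-73907757, plus strand: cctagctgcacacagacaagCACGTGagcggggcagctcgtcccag
Pfkm, chr15:98092433-98092478, plus strand: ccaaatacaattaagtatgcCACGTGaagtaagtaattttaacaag
Hk2, chr6:82774482-82774526, minus strand: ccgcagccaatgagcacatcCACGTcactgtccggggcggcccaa
Ldha, chr7:46845736-46845794, plus strand: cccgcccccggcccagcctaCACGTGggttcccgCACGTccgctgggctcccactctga
Pgam1, chr19:41911737-41911781, plus strand: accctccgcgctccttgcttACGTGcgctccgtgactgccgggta
Pgk1, chrX:106186930-106186993, plus strand: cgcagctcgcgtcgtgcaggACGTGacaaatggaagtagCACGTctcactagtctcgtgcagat
None of these windows overlaps an exon of the annotation. In WT over time the letters stood in 5 of 11 members called higher, 5 of 5 called lower and 8 of 15 not called. In the libraries labelled Bcl3-/- they stood in 3 of 6 called higher, 4 of 7 called lower and 11 of 18 not called. A match describes the letters alone and says nothing of binding.

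Per transcript length, the members spanned from Ldha, with a mean of 1001 FPKM over the 12 libraries, to Egln3 with 0.521 FPKM. FPKM, mapped fragments scaled to transcript length and library depth, is the scale on which levels of different genes are compared here. Ldha, Pkm, Eno1 and Aldoa came first, at 1001, 709, 581 and 474 FPKM on average. Neighbours in this order overlapped over the libraries, with 2 exceptions: Aldoa and Pgam1, and Hif1a and Hk1, were separated in all libraries. The enzymes next in order, Pgam1 at 273, Tpi1 at 251 and Gapdh at 200.3 FPKM, lay well above the glucose transporters Slc2a1 at 17.3 and Slc2a3 at 2.11 FPKM. The second forms of several enzymes were scarce, with Hk2 at 3.87 and Aldoc at 3.47 FPKM. Hif1a stood at 109 FPKM, above every one of the 8 HIF targets and regulators listed with it, of which Adm at 34.4 and Bnip3 at 31.7 FPKM were highest and Car9 at 1.91 and Ankrd37 at 0.766 FPKM among the lowest.

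**Figure D1:**
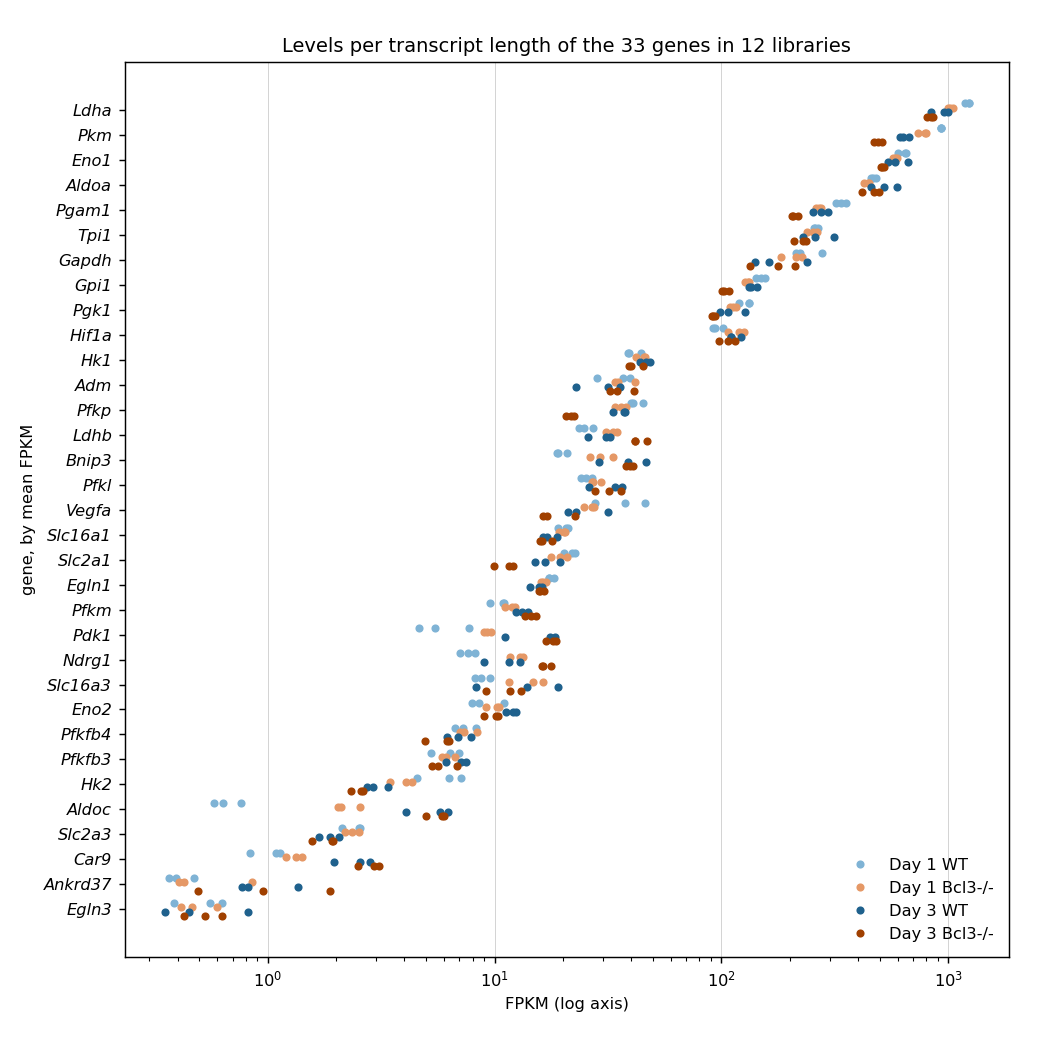
FPKM of the 33 genes in each of the 12 libraries on a log axis, in the order of their mean over all libraries; each point is 1 library, coloured by group. Ldha leads at a mean of 1001 FPKM and Egln3 is lowest at 0.521 FPKM.

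Across the 4 pairwise comparisons 22 of the 33 members were called at least once. On day 1 the libraries labelled Bcl3-/- had 10 called members, with 6 higher and 4 lower, beside 9.03% and 6.26% of all tested genes and 15.3% together. On day 3 there were 2 higher and 5 lower, beside 4.78% and 5.6% of all tested genes and 10.4% together. Over time, in WT 12 rose and 6 fell from day 1 to day 3, beside 20.6% and 17.9% of all genes (38.5% together), and in the libraries labelled Bcl3-/- 7 rose and 8 fell, beside 16.2% and 17.2% (33.4% together). When FPKM values replaced counts, the split over time became 8 higher and 9 lower in WT and 7 higher and 10 lower in Bcl3-/-. Groups did not overlap for 16 members on day 1, 9 on day 3 and 19 over time in each genotype, beside 38.3%, 28.7%, 48.8% and 47.2% of all tested genes. The median log2 fold change of the members was 0.00 on day 1, -0.11 on day 3, 0.10 over time in WT and -0.05 over time in Bcl3-/-, and that of all tested genes was 0.00 in each. Genes that rose and genes that fell were thus found in the same libraries.

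**Figure D2:**
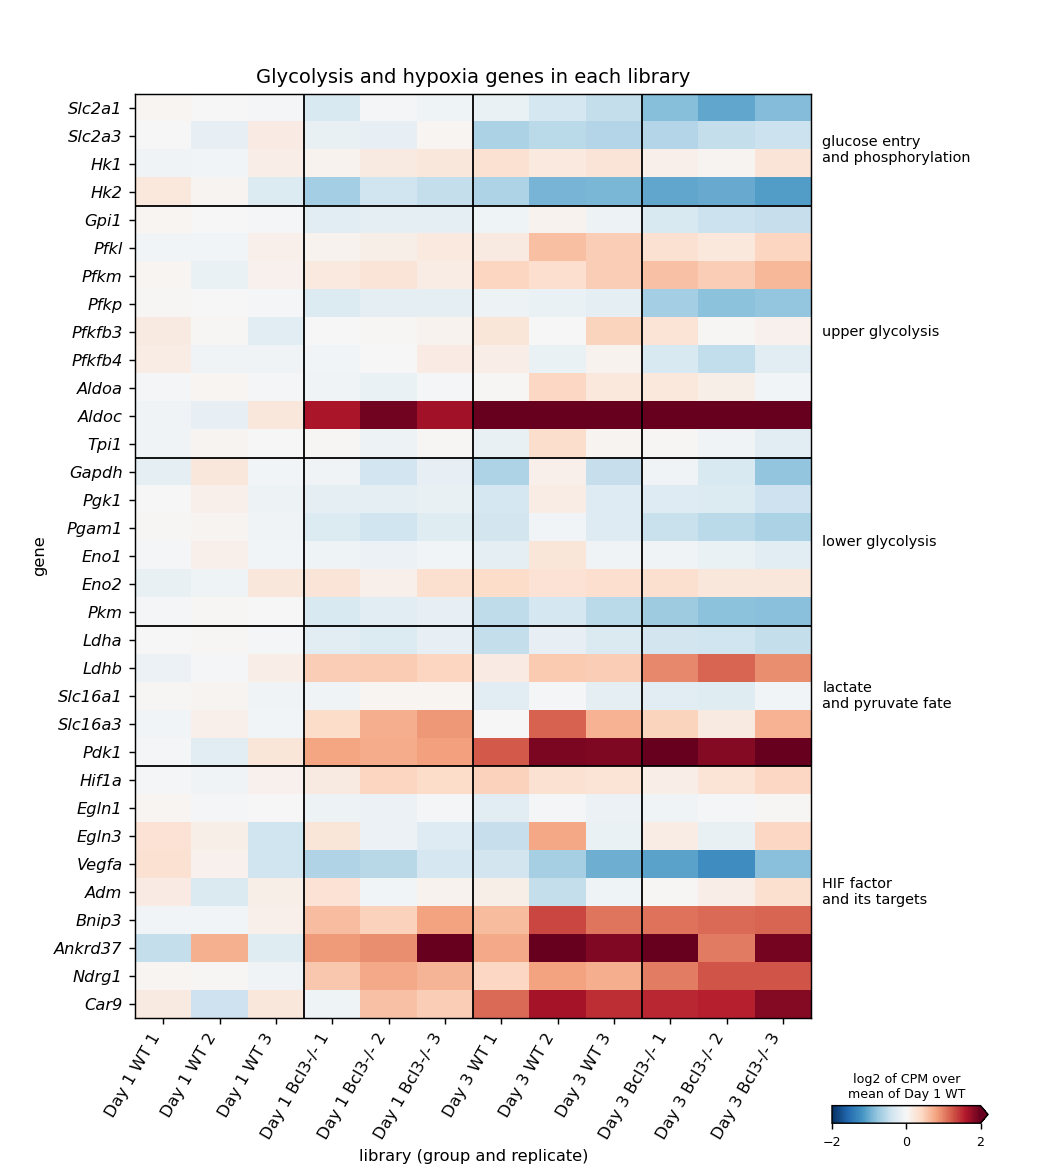
Log2 of CPM in each library relative to the mean of the 3 day 1 WT libraries, for the 33 genes (vertical) in role order and the 12 libraries (horizontal); red is higher, blue lower, and values beyond 2 have the end colour. Aldoc, Pdk1, Bnip3, Ndrg1 and Car9 are red on day 3 in both genotypes while Hk2, Slc2a1, Pkm and Vegfa are blue.

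The comparisons share groups, so their values for one gene are set side by side and not taken as separate support. Over time 7 members rose in both genotypes: Aldoc, Bnip3, Car9, Ldhb, Ndrg1, Pdk1 and Pfkm. Another 5 fell in both: Hk2, Pkm, Slc2a1, Slc2a3 and Vegfa. By genotype, Ldhb and Ndrg1 were higher on both days and Pfkp, Pgam1 and Pkm lower on both. The 11 members called in no pairwise comparison were Adm, Aldoa, Ankrd37, Egln1, Egln3, Eno1, Gapdh, Pfkfb3, Pgk1, Slc16a1 and Tpi1, 5 of them enzymes of the shared glycolytic trunk.

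**Figure D3:**
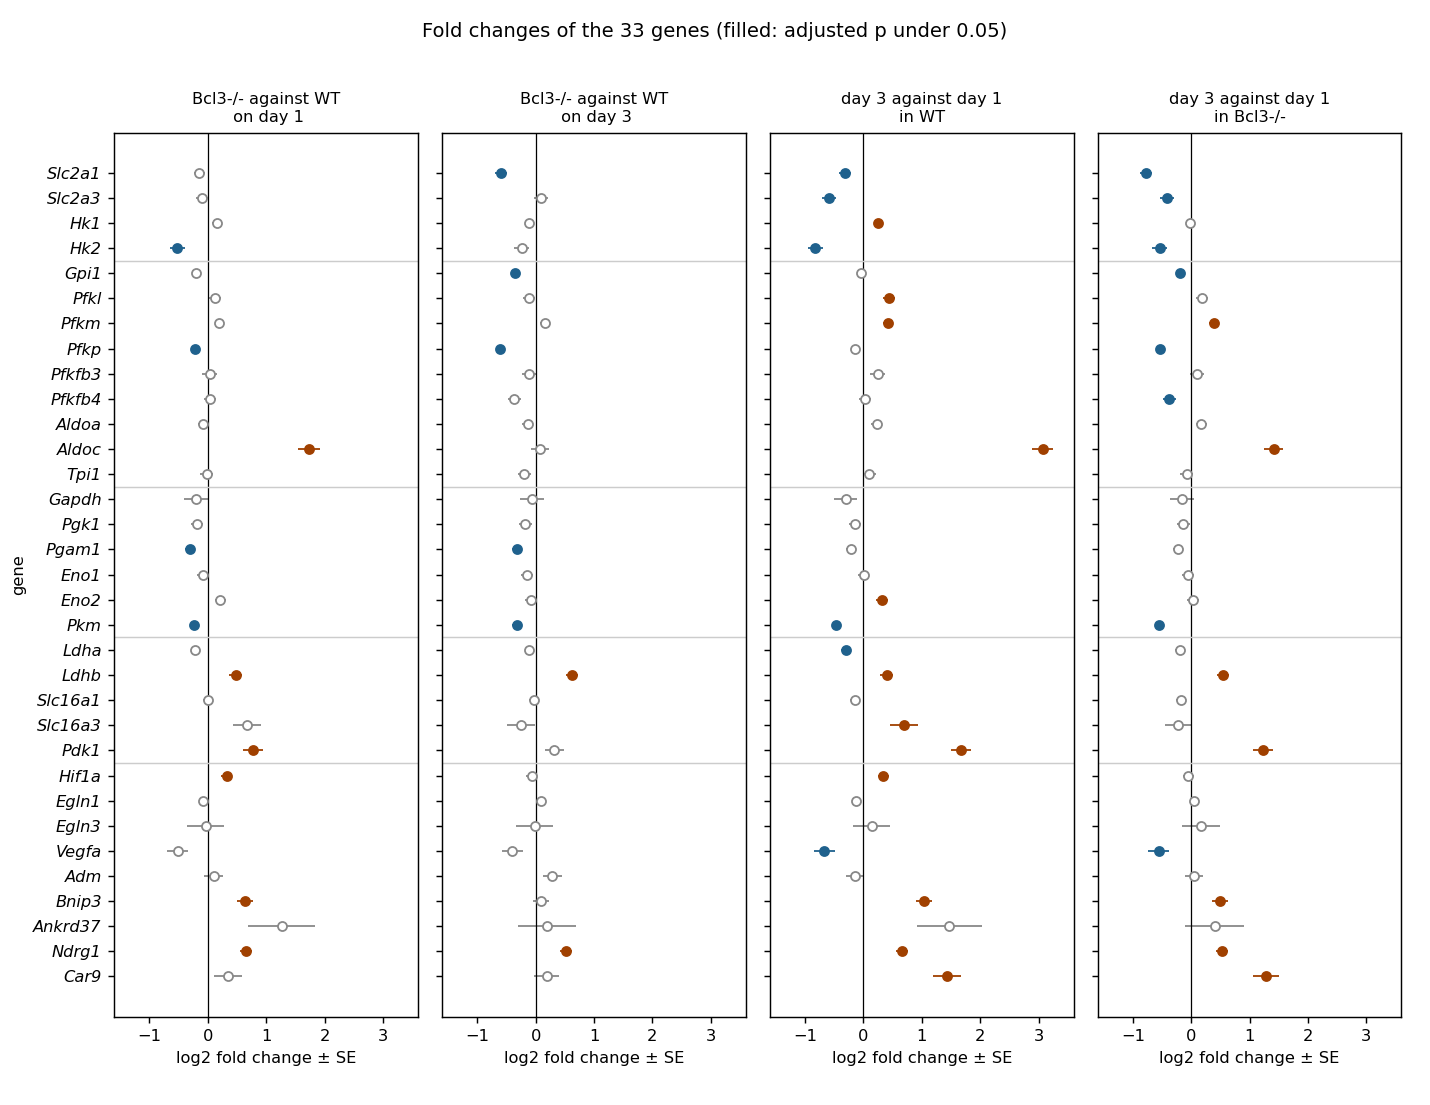
Log2 fold change with its standard error (horizontal) of each of the 33 genes (vertical, in role order) in the 4 pairwise comparisons of edgeR; filled points were called higher (orange) or lower (blue) at an adjusted p under 0.05, and open points were not called. The largest change is that of Aldoc over time in WT, at 3.07.

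Of the 4 genes for glucose entry and phosphorylation, Slc2a1, Slc2a3 and Hk2 fell over time in both genotypes and Hk1 rose in WT. Slc2a1 codes for GLUT1, the main glucose transporter of osteoblasts. Its level was 56.5, 54.8 and 53.05 CPM in day 1 WT, 44.1, 53.1 and 51.6 CPM in day 1 Bcl3-/-, 50.03, 42.7 and 39.3 CPM in day 3 WT and 30.4, 26.6 and 30.1 CPM in day 3 Bcl3-/-. All 3 day 3 libraries labelled Bcl3-/- lay below all 9 others. The genotype difference was -0.14 ± 0.10 (SE, adjusted p = 0.389 by edgeR) on day 1, which was not called, and -0.60 ± 0.10 (SE, adjusted p = 0.00444 by edgeR) on day 3, which was. Over time Slc2a1 fell in the libraries labelled Bcl3-/-, at -0.77 ± 0.10 (SE, adjusted p = 0.000174 by edgeR), and in WT, at -0.32 ± 0.10 (SE, adjusted p = 0.0249 by edgeR); the WT call was lost when omitting day 3 WT replicate 2 or 3 (adjusted p up to 0.117 over all alternatives). The difference between the 2 changes, -0.46 ± 0.14 (SE, adjusted p = 0.181 by edgeR), missed the threshold.

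Slc2a3, the transporter GLUT3, was at 7.96, 7.04 and 8.84 CPM in day 1 WT and 7.13, 7.09 and 8.14 CPM in day 1 Bcl3-/-. By day 3 it was at 5.10, 5.43 and 5.24 CPM in WT against 5.27, 5.70 and 5.89 CPM in Bcl3-/-. The days did not overlap in either genotype, with log2 fold changes of -0.59 ± 0.12 (SE, adjusted p = 0.00194 by edgeR) in WT and -0.41 ± 0.12 (SE, adjusted p = 0.0207 by edgeR) in Bcl3-/-. The WT call was lost with FPKM values (adjusted p up to 0.0741 over all alternatives). That of Bcl3-/- was lost with no count filter or FPKM values or when omitting day 1 Bcl3-/- replicate 3 or day 3 Bcl3-/- replicate 1 (adjusted p up to 0.0969 over all alternatives).

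Hk2, the inducible hexokinase that traps glucose as glucose 6-phosphate, was highest in day 1 WT at 34.5, 30.7 and 24.6 CPM. The other groups had 18.6, 22.4 and 21.3 CPM (day 1 Bcl3-/-), 19.4, 15.6 and 15.7 CPM (day 3 WT) and 14.3, 14.8 and 13.7 CPM (day 3 Bcl3-/-). No pair of compared groups overlapped. Hk2 was lower in the libraries labelled Bcl3-/- on day 1, at -0.53 ± 0.13 (SE, adjusted p = 0.0162 by edgeR), a call lost when omitting day 1 WT replicate 1 or 2 or day 1 Bcl3-/- replicate 1 (adjusted p up to 0.0651 over all alternatives). On day 3 the difference was -0.24 ± 0.13 (SE, adjusted p = 0.267 by edgeR) and was not called. Its fall over time was -0.82 ± 0.13 (SE, adjusted p = 0.000376 by edgeR) in WT and -0.54 ± 0.13 (SE, adjusted p = 0.0079 by edgeR) in Bcl3-/-. Hk1, the constitutive form, ranged from 128 to 166 CPM over the libraries and rose in WT, at 0.25 ± 0.08 (SE, adjusted p = 0.0211 by edgeR), a call lost with FPKM values or when omitting day 1 WT replicate 1 or 2 or day 3 WT replicate 1 or 3 (adjusted p up to 0.111 over all alternatives).

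Upstream of the aldolase step the 3 forms of phosphofructokinase, the committed step of glycolysis, moved apart. Pfkp, the platelet form (chromosome 13, 6579768 to 6648777 on GRCm38), was at 109.9, 107 and 107 CPM in day 1 WT and 89.6, 94.3 and 94.8 CPM in day 1 Bcl3-/-. On day 3 WT libraries held 100.2, 97.8 and 95.6 CPM, and those labelled Bcl3-/- held 67.3, 60.9 and 63.3 CPM, below every other library. The genotype difference was -0.22 ± 0.06 (SE, adjusted p = 0.0268 by edgeR) on day 1 and -0.62 ± 0.06 (SE, adjusted p = 0.000547 by edgeR) on day 3. The day 1 call was lost with no count filter or FPKM values or when omitting day 1 WT replicate 1 or 2 or day 1 Bcl3-/- replicate 1, 2 or 3 (adjusted p up to 0.183 over all alternatives), and the day 3 call held in every alternative run. From day 1 to day 3 Pfkp fell in Bcl3-/-, at -0.54 ± 0.06 (SE, adjusted p = 4.72e-05 by edgeR), and changed by -0.14 ± 0.06 (SE, adjusted p = 0.0769 by edgeR) in WT, not called.

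The muscle form Pfkm went the other way, at 28.2, 25.2 and 29.3 CPM in day 1 WT, 31.5, 32.9 and 30.3 CPM in day 1 Bcl3-/-, 36.9, 34.7 and 38.7 CPM in day 3 WT and 41.1, 38.7 and 43.8 CPM in day 3 Bcl3-/-. It rose over time by 0.42 ± 0.08 (SE, adjusted p = 0.00139 by edgeR) in WT and 0.38 ± 0.08 (SE, adjusted p = 0.00327 by edgeR) in Bcl3-/-, calls that held in every alternative, and was not called by genotype. Pfkl, the liver form, rose in WT at 0.43 ± 0.10 (SE, adjusted p = 0.00535 by edgeR), a call lost with FPKM values (adjusted p up to 0.064 over all alternatives). An unnamed transcript of the same strand overlaps 10.2% of the exon bases of Pfkm, so part of its counts is uncertain.

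Aldoc, brain-type aldolase, changed most of all members (chromosome 11, 78322968 to 78327781 on GRCm38). It was near 1 CPM in day 1 WT, at 0.995, 0.933 and 1.22 CPM, and at 3.24, 3.99 and 3.36 CPM in day 1 Bcl3-/-. On day 3 it reached 7.04, 9.61 and 9.88 CPM in WT against 9.89, 9.68 and 8.47 CPM in Bcl3-/-. The groups were apart on day 1 and overlapped on day 3. Aldoc was higher in the libraries labelled Bcl3-/- on day 1 by 1.74 ± 0.18 (SE, adjusted p = 0.000333 by edgeR), and the day 3 difference was 0.08 ± 0.15 (SE, adjusted p = 0.782 by edgeR). It rose over time by 3.07 ± 0.18 (SE, adjusted p = 1.99e-06 by edgeR) in WT and by 1.41 ± 0.16 (SE, adjusted p = 6.72e-05 by edgeR) in Bcl3-/-. These 3 calls held in every alternative. Its main counterpart Aldoa, at 474 FPKM on average, was called in no comparison.

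Of the other upper genes, Gpi1 codes for glucose-6-phosphate isomerase and was at 213, 237 and 209.6 CPM in day 3 WT against 182, 167 and 164 CPM in day 3 Bcl3-/-. The 2 groups did not overlap, and the difference of -0.36 ± 0.06 (SE, adjusted p = 0.00572 by edgeR) was called, but not when only the 6 day 3 libraries were fitted (adjusted p = 0.0625). On day 1 the levels were 231, 227 and 219 CPM in WT against 194, 197 and 196 CPM in Bcl3-/-, a difference of -0.21 ± 0.06 (SE, adjusted p = 0.0507 by edgeR) that just missed the threshold. Its fall in Bcl3-/- over time, -0.19 ± 0.06 (SE, adjusted p = 0.0369 by edgeR), was lost with upper-quartile scaling, no count filter or a filter on CPM or when omitting day 1 WT replicate 1, 2 or 3, day 1 Bcl3-/- replicate 1, 2 or 3 or day 3 Bcl3-/- replicate 2 or 3 (adjusted p up to 0.121 over all alternatives). Pfkfb4, which sets the level of the phosphofructokinase activator fructose 2,6-bisphosphate, was at 17.9, 18.5 and 20.98 CPM on day 1 and 15.1, 13.2 and 15.9 CPM on day 3 in Bcl3-/-. That fall was -0.38 ± 0.11 (SE, adjusted p = 0.0189 by edgeR), lost when omitting day 1 Bcl3-/- replicate 3 or day 3 Bcl3-/- replicate 2 (adjusted p up to 0.0786 over all alternatives). In WT Pfkfb4 was at 20.6, 17.8 and 17.7 CPM and 20.5, 16.97 and 19.5 CPM and was not called. Pfkfb3, of the same function, and Tpi1, triose-phosphate isomerase, were called in no comparison.

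**Figure D4:**
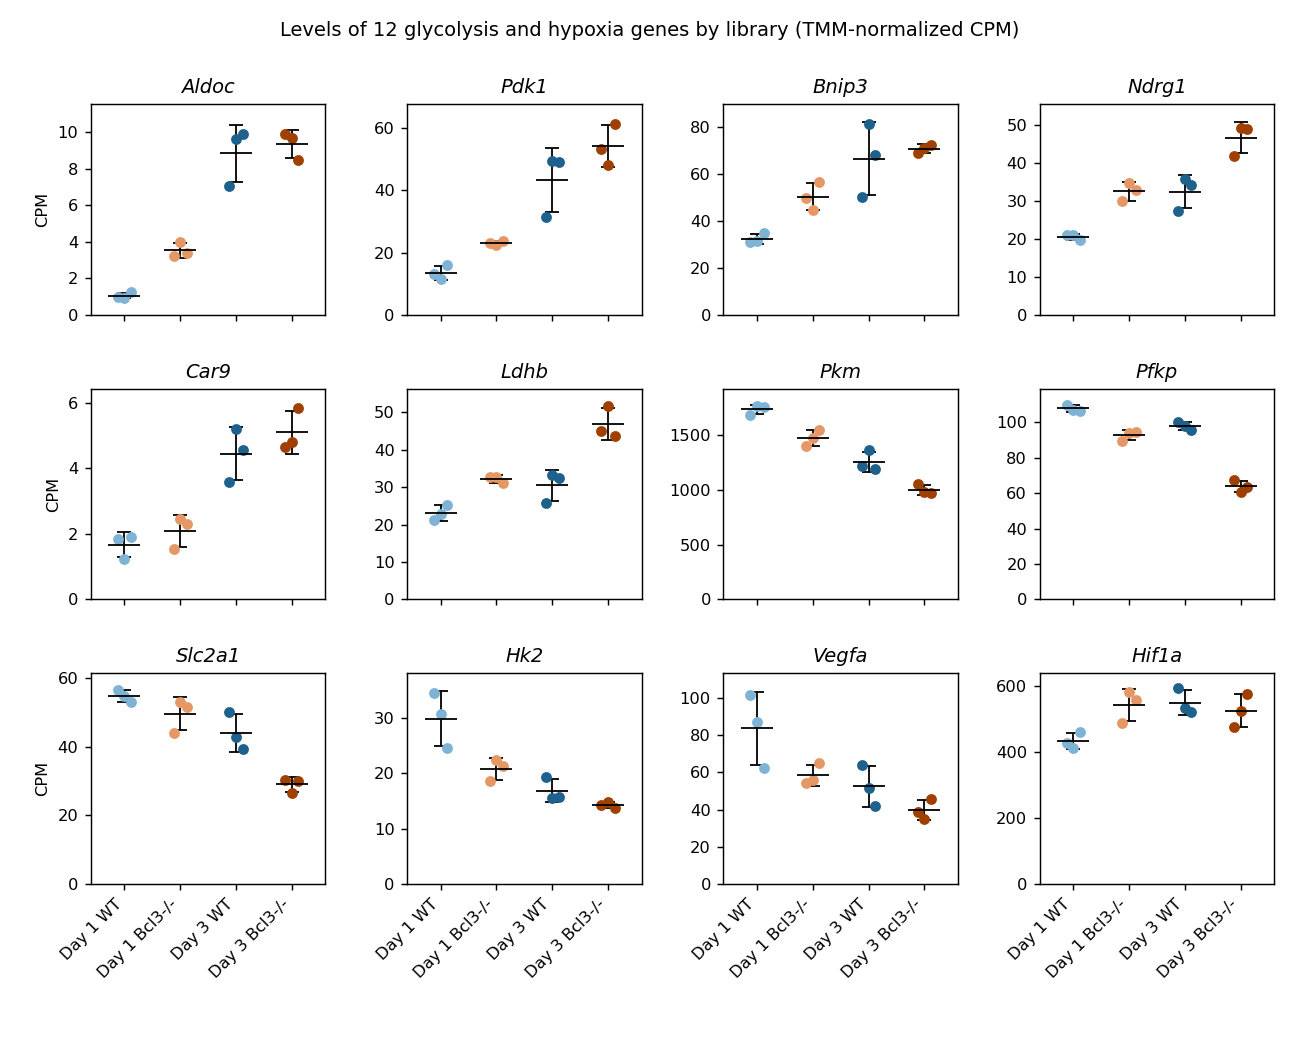
TMM-normalized CPM (vertical, from 0) of 12 of the 33 genes in the 4 groups (horizontal); points are the 3 libraries of a group, with the mean and SD as a line and bars. Aldoc is near 1 CPM in day 1 WT alone, and the day 3 Bcl3-/- libraries lie below all others for Pfkp and Slc2a1 and above all others for Ldhb and Ndrg1.

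The lower part of glycolysis held the abundant trunk enzymes, and 3 of the 6, Gapdh, Pgk1 and Eno1, were called in no comparison. Gapdh, glyceraldehyde-3-phosphate dehydrogenase and a common reference gene, was at 104, 138 and 114 CPM in day 1 WT, 112, 90.7 and 105 CPM in day 1 Bcl3-/-, 76.4, 126 and 85.6 CPM in day 3 WT and 112, 95.1 and 68.2 CPM in day 3 Bcl3-/-. Its groups overlapped in all 4 comparisons, and its spread was wide, with log2 fold changes from -0.30 to -0.06 and standard errors of 0.20. The direction on day 3 turned when 1 library was left out: it became 0.18 without day 3 WT replicate 2 and 0.11 without day 3 Bcl3-/- replicate 3. Pgk1 codes for phosphoglycerate kinase and Eno1 for the main enolase. With Tpi1 they kept to log2 fold changes between -0.19 and 0.10 for Tpi1, -0.18 and -0.14 for Pgk1, and -0.14 and 0.00 for Eno1. Several of these enzymes have many processed pseudogenes, and reads with more than 1 alignment, 10.6 to 12.8% per library, were not counted, so their levels may be understated.

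Pkm codes for pyruvate kinase, the last step to pyruvate. Its level was 1687, 1763 and 1752 CPM in day 1 WT, 1397, 1477 and 1543 CPM in day 1 Bcl3-/-, 1217, 1362 and 1189 CPM in day 3 WT and 1055, 977 and 973 CPM in day 3 Bcl3-/-. The 4 groups followed each other downwards with no overlap between compared groups. The fall over time was -0.47 ± 0.07 (SE, adjusted p = 0.000289 by edgeR) in WT and -0.56 ± 0.07 (SE, adjusted p = 0.000131 by edgeR) in Bcl3-/-, and both calls held in every alternative. By genotype Pkm was lower, at -0.24 ± 0.07 (SE, adjusted p = 0.0393 by edgeR) on day 1 and -0.33 ± 0.07 (SE, adjusted p = 0.0126 by edgeR) on day 3. The day 1 call was lost with no count filter or a block by title number or when omitting day 1 WT replicate 1, 2 or 3, day 1 Bcl3-/- replicate 1, 2 or 3 or day 3 Bcl3-/- replicate 2 (adjusted p up to 0.166 over all alternatives). The day 3 call was lost with only the 6 libraries of that day and without day 3 Bcl3-/- replicate 2 (adjusted p up to 0.0869 over all alternatives). Counts per gene do not separate the PKM1 and PKM2 splice forms. A second annotated gene of the same strand overlaps 15.3% of the exon bases of Pkm, so part of its counts is uncertain.

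Pgam1, phosphoglycerate mutase, was at 451, 460.4 and 426 CPM in day 1 WT and 368, 339 and 376 CPM in day 1 Bcl3-/-. On day 3 it was at 346, 430.4 and 373 CPM in WT against 328, 306 and 286 CPM in Bcl3-/-. Genotypes did not overlap on either day, and the differences of -0.30 ± 0.08 (SE, adjusted p = 0.0304 by edgeR) and -0.32 ± 0.08 (SE, adjusted p = 0.0322 by edgeR) were both called. The first was lost when omitting day 1 WT replicate 1 or 2, day 1 Bcl3-/- replicate 1, 2 or 3 or day 3 Bcl3-/- replicate 2 (adjusted p up to 0.141 over all alternatives), and the second was lost with only the 6 libraries compared or when omitting day 1 WT replicate 1, 2 or 3, day 1 Bcl3-/- replicate 1, 2 or 3, day 3 WT replicate 2 or day 3 Bcl3-/- replicate 2 or 3 (adjusted p up to 0.139 over all alternatives). Eno2, neuronal enolase, rose in WT over time, at 0.32 ± 0.10 (SE, adjusted p = 0.0237 by edgeR), which was lost with only the 6 libraries compared or when omitting day 1 WT replicate 1 or 2 or day 3 WT replicate 1 or 3 (adjusted p up to 0.132 over all alternatives).

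At the fate of pyruvate the 2 subunits of lactate dehydrogenase moved in opposite directions in WT. Ldha codes for the subunit that favours lactate formation and was at 1568, 1598 and 1549 CPM in day 1 WT and 1132, 1396 and 1292 CPM in day 3 WT. The groups did not overlap, and the fall of -0.30 ± 0.08 (SE, adjusted p = 0.00761 by edgeR) held in every alternative. In Bcl3-/- it went from 1344, 1303 and 1406 CPM to 1220.0, 1189.8 and 1126 CPM, at -0.20 ± 0.08 (SE, adjusted p = 0.0652 by edgeR), not called. By genotype it differed by -0.22 ± 0.08 (SE, adjusted p = 0.0741 by edgeR) on day 1 and -0.11 ± 0.08 (SE, adjusted p = 0.383 by edgeR) on day 3, neither called.

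Ldhb, the subunit that favours pyruvate (chromosome 6, 142490249 to 142507957 on GRCm38), was at 21.2, 22.8 and 25.4 CPM in day 1 WT and 32.6, 32.9 and 31.1 CPM in day 1 Bcl3-/-. On day 3 the levels were 25.8, 33.2 and 32.5 CPM in WT against 45.04, 51.7 and 43.8 CPM in Bcl3-/-. The libraries labelled Bcl3-/- lay above WT on both days with no overlap. The difference was 0.47 ± 0.11 (SE, adjusted p = 0.0113 by edgeR) on day 1, lost when omitting day 1 WT replicate 1 or 2 or day 1 Bcl3-/- replicate 1 or 2 (adjusted p up to 0.0731 over all alternatives), and 0.62 ± 0.11 (SE, adjusted p = 0.00466 by edgeR) on day 3, which held in every alternative. Over time Ldhb rose by 0.54 ± 0.11 (SE, adjusted p = 0.00225 by edgeR) in Bcl3-/- and by 0.40 ± 0.11 (SE, adjusted p = 0.0109 by edgeR) in WT. The WT call was lost with FPKM values or when omitting day 1 WT replicate 1 or 2 or day 3 WT replicate 3 (adjusted p up to 0.076 over all alternatives).

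Pdk1 codes for a kinase that switches off pyruvate dehydrogenase and so holds back the oxidation of pyruvate in the mitochondria. It was at 13.1, 11.6 and 15.98 CPM in day 1 WT and 23.2, 22.6 and 23.8 CPM in day 1 Bcl3-/-, and at 31.5, 49.6 and 49.02 CPM in day 3 WT and 53.3, 48.1 and 61.5 CPM in day 3 Bcl3-/-. Genotypes were apart on day 1 and overlapped on day 3, and the days were apart in both genotypes. The rise over time was 1.68 ± 0.17 (SE, adjusted p = 2.4e-05 by edgeR) in WT and 1.23 ± 0.17 (SE, adjusted p = 0.000225 by edgeR) in Bcl3-/-, and both calls held in every alternative. On day 1 Pdk1 was higher in the libraries labelled Bcl3-/- by 0.77 ± 0.17 (SE, adjusted p = 0.0103 by edgeR), a call lost with log2(FPKM + 1) values or when omitting day 1 WT replicate 1 or 2 (adjusted p up to 0.0601 over all alternatives). The day 3 difference was 0.32 ± 0.16 (SE, adjusted p = 0.234 by edgeR). Slc16a3, the lactate exporter MCT4, rose in WT, at 0.70 ± 0.24 (SE, adjusted p = 0.036 by edgeR), with 1 low day 3 library among 18.6, 42.6 and 30.3 CPM. That call was lost with only the 6 libraries compared or FPKM values or when omitting day 1 WT replicate 1, 2 or 3, day 1 Bcl3-/- replicate 2 or 3 or day 3 WT replicate 2 or 3 (adjusted p up to 0.184 over all alternatives). Slc16a1, the transporter MCT1, was called in no comparison.

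Hif1a, the oxygen-regulated subunit itself, was at 426, 413 and 462 CPM in day 1 WT and 489, 583 and 558 CPM in day 1 Bcl3-/-. On day 3 WT had 594, 534 and 523 CPM and Bcl3-/- had 476, 524 and 575 CPM. Day 1 WT lay below day 1 Bcl3-/- and below day 3 WT with no overlap, and the other compared groups overlapped. The genotype difference on day 1 was 0.32 ± 0.09 (SE, adjusted p = 0.0306 by edgeR) and was lost when omitting day 1 WT replicate 1 or 2 or day 1 Bcl3-/- replicate 2 or 3 (adjusted p up to 0.113 over all alternatives). On day 3 it was -0.07 ± 0.09 (SE, adjusted p = 0.677 by edgeR). Hif1a rose in WT over time by 0.34 ± 0.09 (SE, adjusted p = 0.00995 by edgeR), lost when omitting day 1 WT replicate 2 (adjusted p up to 0.0507 over all alternatives), and changed by -0.05 ± 0.09 (SE, adjusted p = 0.718 by edgeR) in Bcl3-/-. HIF-1α is mainly controlled by protein stability, which counts do not measure. The prolyl hydroxylase genes Egln1, at 16.4 FPKM on average, and Egln3, at 0.521 FPKM, were called in no comparison.

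The HIF targets did not move one way. Vegfa, the vessel growth factor, fell: it was at 101, 87.2 and 62.4 CPM in day 1 WT, 54.2, 56.04 and 64.9 CPM in day 1 Bcl3-/-, 63.7, 51.8 and 41.8 CPM in day 3 WT and 38.9, 34.7 and 45.7 CPM in day 3 Bcl3-/-. The 3 day 1 WT libraries spread widely, and of the compared groups the days in Bcl3-/- alone did not overlap. The fall was -0.67 ± 0.18 (SE, adjusted p = 0.0113 by edgeR) in WT and -0.56 ± 0.18 (SE, adjusted p = 0.0343 by edgeR) in Bcl3-/-. The WT call was lost with FPKM values of genes past an FPKM filter or when omitting day 3 WT replicate 3 (adjusted p up to 0.0552 over all alternatives), and the other was lost with FPKM values or when omitting day 1 Bcl3-/- replicate 2 or 3 or day 3 Bcl3-/- replicate 1 or 2 (adjusted p up to 0.125 over all alternatives). By genotype Vegfa differed by -0.52 ± 0.18 (SE, adjusted p = 0.075 by edgeR) on day 1 and -0.40 ± 0.18 (SE, adjusted p = 0.184 by edgeR) on day 3, neither called.

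Bnip3, which marks mitochondria for removal, rose instead. Its levels were 31.1, 31.3 and 34.7 CPM in day 1 WT, 49.8, 44.7 and 56.5 CPM in day 1 Bcl3-/-, 50.3, 81.2 and 67.9 CPM in day 3 WT and 68.8, 71.1 and 72.3 CPM in day 3 Bcl3-/-. Genotypes were apart on day 1 and overlapped on day 3. The rise over time was 1.04 ± 0.14 (SE, adjusted p = 0.000163 by edgeR) in WT, which held in every alternative, and 0.49 ± 0.14 (SE, adjusted p = 0.019 by edgeR) in Bcl3-/-, which was lost when omitting day 1 Bcl3-/- replicate 1 or 2 or day 3 Bcl3-/- replicate 2 (adjusted p up to 0.0907 over all alternatives). On day 1 the genotype difference was 0.64 ± 0.14 (SE, adjusted p = 0.0115 by edgeR), lost when omitting day 1 WT replicate 1 or 2 or day 1 Bcl3-/- replicate 3 (adjusted p up to 0.0639 over all alternatives). A gene on the opposite strand overlaps 22.3% of the exon bases of Bnip3, and the strand setting of the counting is not given in the sources used here. Opposite-strand genes also overlap 22.7% of the exon bases of Ankrd37 and 11.5% of those of Gpi1.

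Ndrg1, a stress-induced gene linked to differentiation (chromosome 15, 66929318 to 66969640 on GRCm38), was the one member called in all 4 pairwise comparisons with every call held in every alternative. It was at 21.1, 20.99 and 19.7 CPM in day 1 WT and 29.9, 34.6 and 32.9 CPM in day 1 Bcl3-/-, then at 27.4, 35.8 and 34.1 CPM in day 3 WT and 41.9, 49.1 and 48.97 CPM in day 3 Bcl3-/-. No compared groups overlapped. Bcl3-/- was higher by 0.66 ± 0.11 (SE, adjusted p = 0.00225 by edgeR) on day 1 and 0.52 ± 0.10 (SE, adjusted p = 0.00939 by edgeR) on day 3. Its rise over time was 0.66 ± 0.11 (SE, adjusted p = 0.000474 by edgeR) in WT and 0.52 ± 0.10 (SE, adjusted p = 0.0027 by edgeR) in Bcl3-/-.

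Car9, the surface carbonic anhydrase that handles the acid of glycolytic cells, was low but rose over time in both genotypes. It went from 1.85, 1.23 and 1.92 CPM to 3.59, 5.19 and 4.57 CPM in WT and from 1.54, 2.45 and 2.31 CPM to 4.65, 4.79 and 5.84 CPM in Bcl3-/-. The days did not overlap, with rises of 1.43 ± 0.23 (SE, adjusted p = 0.000496 by edgeR) and 1.28 ± 0.23 (SE, adjusted p = 0.00135 by edgeR) that held in every alternative, and genotypes were not called on either day. Ankrd37 stayed under 1 CPM in every library, from 0.0905 to 0.650 CPM, and its large change in WT, 1.47 ± 0.56 (SE, adjusted p = 0.0555 by edgeR), was not called. Adm, the vasodilator adrenomedullin, was at 28.9 to 50.1 CPM and was not called.

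The difference between the genotypes in the change over time passed the test for Aldoc, at -1.66 ± 0.24 (SE, adjusted p = 0.0206 by edgeR), and for Pfkp, at -0.40 ± 0.08 (SE, adjusted p = 0.0428 by edgeR), beside 0.95% of all tested genes called lower in that test. Negative values mean a smaller rise or a larger fall in the libraries labelled Bcl3-/-. For Aldoc this is the smaller rise from a day 1 level already above that of WT, and for Pfkp a fall in Bcl3-/- beside no called change in WT. Both calls depended on single libraries: Aldoc lost its call with FPKM values of genes past an FPKM filter or when omitting day 1 WT replicate 1 or 2, day 1 Bcl3-/- replicate 2 or 3, day 3 WT replicate 2 or day 3 Bcl3-/- replicate 2 (adjusted p up to 0.0936 over all alternatives), and Pfkp lost its call with a block by title number, a block by culture or FPKM values of genes past an FPKM filter or when omitting day 1 WT replicate 1, 2 or 3, day 1 Bcl3-/- replicate 1, 2 or 3, day 3 WT replicate 1, 2 or 3 or day 3 Bcl3-/- replicate 2 or 3 (adjusted p up to 0.169 over all alternatives). In edgeR 0 members were called higher; at an unadjusted p under 0.05 there were 0 higher and 8 lower, and DESeq2 called 0 higher and 2 lower. The median over the 33 members was -0.13 in this test, and -0.01 over all tested genes.

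Within 4 enzyme families the forms were set against each other as shares of the summed FPKM. The Ldhb share of Ldha and Ldhb was 2.03 ± 0.184% (SD, n = 3) for WT and 3.13 ± 0.249% for Bcl3-/- on day 1, then 3.08 ± 0.157% and 4.95 ± 0.342% on day 3. The 12 libraries separated fully in each of the 4 comparisons, and each gave an exact permutation p of 0.1, two-sided, the smallest that 3 against 3 libraries can give. The Pfkp share of the 3 phosphofructokinases was 53.9 ± 2.50%, 47.7 ± 1.29%, 44.3 ± 4.08% and 31.9 ± 1.34% in the same order of groups, again with an exact permutation p of 0.1 in every comparison. The Hk2 share of the 2 hexokinases was 12.9 ± 3.14%, 8.11 ± 0.525%, 6.13 ± 0.395% and 5.78 ± 0.750%. The day 3 genotypes overlapped, with an exact permutation p of 0.6, and the other 3 comparisons did not. The Aldoc share of the 2 aldolases was 0.141 ± 0.0221%, 0.507 ± 0.0760%, 1.01 ± 0.154% and 1.20 ± 0.0250%. Its day 3 genotypes overlapped, with an exact permutation p of 0.2, and the other 3 comparisons did not. On CPM per kilobase of merged exons the day 3 genotypes were apart for Aldoc, with an exact permutation p of 0.1, so that overlap depends on the scale.

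**Figure D5:**
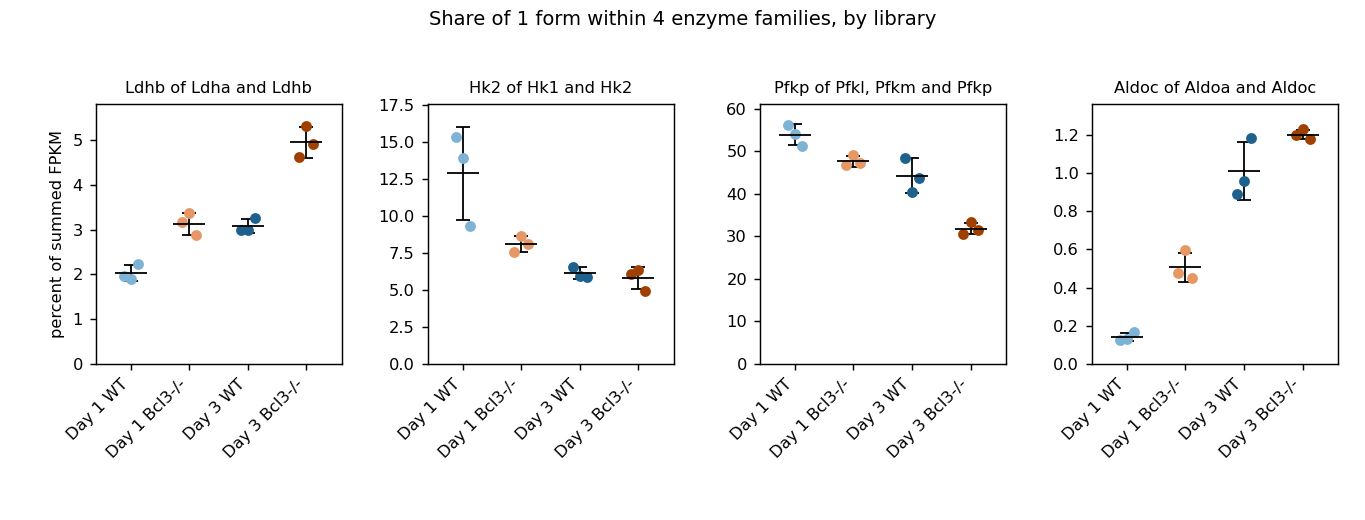
Share (percent of summed FPKM, vertical, from 0) of Ldhb, Hk2, Pfkp and Aldoc within their enzyme families in the 4 groups (horizontal); points are libraries, with the mean and SD (n = 3) as lines. The Ldhb share is lowest in day 1 WT and highest in day 3 Bcl3-/-, and the Pfkp share runs the other way.

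As a whole, the 17 glycolytic enzymes from hexokinase to lactate dehydrogenase took under 1% of all gene counts. This share is of raw counts, without TMM scaling, so it also depends on how much other abundant genes took. Reads with more than 1 alignment were not counted, so the share may be understated. Their share was 0.661 ± 0.0180% (SD, n = 3) for WT and 0.576 ± 0.0141% for Bcl3-/- on day 1, then 0.549 ± 0.0602% and 0.475 ± 0.0299% on day 3. Groups were apart on day 1 and over time in both genotypes, each with an exact permutation p of 0.1, the smallest possible here, and overlapped between genotypes on day 3 with an exact permutation p of 0.2. Pkm, Ldha, Eno1 and Aldoa had the highest CPM among these enzymes, so the sum mostly follows them.

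Of 82 further glycolysis and hypoxia genes, listed from general knowledge but with earlier results of these data known, 72 were tested. By genotype label, Bcl3-/- had 8 higher and 5 lower on day 1 and 9 higher and 2 lower on day 3. Over time 24 rose and 11 fell for WT, against 18 and 8 for Bcl3-/-. The shares called either way were 18.1% and 15.3% by genotype on day 1 and day 3, and 48.6% and 36.1% over time in WT and Bcl3-/-, beside 15.3%, 10.4%, 38.5% and 33.4% of all tested genes. The switch at pyruvate dehydrogenase moved on both sides: the phosphatase gene Pdp1, which switches the enzyme on, rose by 1.12 ± 0.14 (SE, adjusted p = 6.99e-05 by edgeR) in WT and 0.81 ± 0.13 (SE, adjusted p = 0.000792 by edgeR) in Bcl3-/-, the kinase gene Pdk2 rose by 0.99 ± 0.13 (SE, adjusted p = 0.000117 by edgeR) in WT and 0.93 ± 0.13 (SE, adjusted p = 0.000236 by edgeR) in Bcl3-/-, and Dlat, a core subunit of the complex, fell by -0.40 ± 0.06 (SE, adjusted p = 0.000283 by edgeR) in WT and -0.30 ± 0.06 (SE, adjusted p = 0.00254 by edgeR) in Bcl3-/-. By genotype both Pdp1 and Pdk2 were called higher on both days in the libraries labelled Bcl3-/-, with Pdp1 on day 1 at 0.79 ± 0.14 (SE, adjusted p = 0.00289 by edgeR), which held in every alternative. Leaving out single libraries ended the other 3 of these calls, and FPKM values also ended that of Pdp1 on day 3 (adjusted p up to 0.137). The mitophagy gene Bnip3l rose with its relative Bnip3, by 0.71 ± 0.09 (SE, adjusted p = 8.45e-05 by edgeR) in WT and 0.81 ± 0.09 (SE, adjusted p = 4.89e-05 by edgeR) in Bcl3-/-.

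Among the further HIF targets, the transferrin receptor gene Tfrc and Hmox1, heme oxygenase 1, were lower on day 1 in the libraries labelled Bcl3-/-, at -0.50 ± 0.09 (SE, adjusted p = 0.00395 by edgeR) and -0.52 ± 0.10 (SE, adjusted p = 0.00588 by edgeR). Tfrc fell in WT over time, at -0.47 ± 0.09 (SE, adjusted p = 0.00147 by edgeR), and Ero1a, an oxidase of the endoplasmic reticulum, fell in both genotypes, at -0.38 ± 0.08 (SE, adjusted p = 0.00295 by edgeR) in WT and -0.41 ± 0.08 (SE, adjusted p = 0.0028 by edgeR) in Bcl3-/-. The calls of Tfrc were lost with FPKM values, with an adjusted p of up to 0.254 on day 1 and 0.0784 over time. In the other direction, Angptl4, a lipoprotein lipase inhibitor, rose over time by 0.97 ± 0.23 (SE, adjusted p = 0.00551 by edgeR) in WT and 1.77 ± 0.23 (SE, adjusted p = 0.000139 by edgeR) in Bcl3-/- and was higher on day 3 by 1.33 ± 0.22 (SE, adjusted p = 0.00401 by edgeR). Narf was higher on day 1 by 1.16 ± 0.13 (SE, adjusted p = 0.000564 by edgeR) and rose by 1.69 ± 0.14 (SE, adjusted p = 8.66e-06 by edgeR) in WT and 0.80 ± 0.13 (SE, adjusted p = 0.000701 by edgeR) in Bcl3-/-. Ppp1r3c, which targets phosphatase to glycogen, was higher by 2.48 ± 0.39 (SE, adjusted p = 0.00197 by edgeR) on day 1 and 2.10 ± 0.35 (SE, adjusted p = 0.004 by edgeR) on day 3, with at most 1.32 CPM in any WT library. Edn1, endothelin 1, was higher on day 3, at 1.93 ± 0.32 (SE, adjusted p = 0.00426 by edgeR). Its day 3 levels were low, at 0.563, 0.307 and 0.978 CPM in WT against 2.41, 2.36 and 2.47 CPM in Bcl3-/-. Bhlhe40, a clock-linked repressor, and Pdp2, a pyruvate dehydrogenase phosphatase, were lower on day 3, at -0.41 ± 0.10 (SE, adjusted p = 0.0219 by edgeR) and -0.51 ± 0.13 (SE, adjusted p = 0.0245 by edgeR). The Bhlhe40 call was lost with only the 6 libraries compared or when omitting day 3 WT replicate 1 or day 3 Bcl3-/- replicate 2 (adjusted p up to 0.0916 over all alternatives), and that of Pdp2 with only the 6 libraries compared or when omitting day 3 WT replicate 1 or 3 or day 3 Bcl3-/- replicate 2 or 3 (adjusted p up to 0.0915 over all alternatives).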

How the data were processed

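RNA was measured in 12 libraries of calvarial osteoblast cultures in 4 groups of 3, taken from the labels. The authors trimmed reads with Trim Galore, aligned them to GRCm38 with TopHat2 and deposited raw counts per gene from HTSeq and FPKM values from Cufflinks; versions, strand setting and annotation release are not given in the sources used here. Counts covered 49585 genes, and 5 entries that name no gene, 12.3 to 14.7% of reads, were left out. FPKM covered 49318 genes; 49 entries with several values and 1 stray header were left out.

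Symbols and coordinates were looked up in GENCODE M21, where 49326 identifiers had a symbol. Genes were kept by filterByExpr (16318), scaled by TMM (factors 0.951 to 1.05) and fitted in 1 quasi-likelihood model of 4 groups with edgeR 4.0.16, with Benjamini-Hochberg adjustment over all tested genes; the biological coefficient of variation was 13.5%. For sums and shares exact permutation tests, two-sided, were run. All 66 pairs of libraries differed beyond sampling noise, with a chi-square of at least 9.14 per gene. In simulated data 96, 92, 94 and 98% of genes changed by 3 on the log2 scale were recovered, and 52, 54, 50 and 50% at 0.7, in the order day 1, day 3, WT time and Bcl3-/- time. Only 50 genes were changed at each size, while 1693 to 6285 genes were called in the real pairwise comparisons. The rates may therefore not carry over to these data.

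The members and gene lists were chosen with earlier results of these data known. Named with all values were Hif1a, Slc2a1, Gapdh, Ldha and Vegfa and, per comparison, up to 5 members called in each direction with the smallest adjusted p, and up to 3 further pathway genes, of which 1 is counted with its list but not reported by name here. Pfkm, Slc16a3 and single values of other members were added after the values were seen. Alternatives were RLE and upper-quartile scaling, no count filter, a minimum of 1 CPM in 6 libraries, DESeq2 1.42.0, the 6 libraries compared alone, blocks by title number and by culture, limma 3.58.1 on log2(FPKM + 1), log2(FPKM + 0.1) and on genes reaching an FPKM of 1 in 3 libraries, and leaving out each library. After seeing the data, a transcript-length index was added as a covariate, the median log2 deviation of 444 genes of up to 1500 bases minus that of 5935 genes of at least 4000 bases, from -0.36 to 0.48 over the libraries. The culture codes are the same on both days; deviations of libraries with the same code correlated at 0.243 to 0.327 over time in WT and at -0.157 to -0.0168 in Bcl3-/-. Scripts ran in R 4.3.3 and in Python 3.11.15, with scipy 1.17.1, numpy 2.4.6, pandas 2.3.3 and matplotlib 3.10.9.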

Additional observations from a re-analysis of the deposited data

Results flagged for a closer look

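A test of the difference between the genotypes in the change from day 1 to day 3 passed for 2 of the 33 members and 3 of the 72 further pathway genes, and all 5 differences were negative, a smaller rise or a larger fall in the libraries labelled Bcl3-/-. Of all tested genes 0.95% were called lower and 0.172% higher in this test, so most calls were negative across all genes too. The differences were -1.66 for Aldoc (adjusted p = 0.0206) and -0.40 for Pfkp (adjusted p = 0.0428) among the members. The other 3 were -0.90 for Pdp2 (adjusted p = 0.0374), -1.20 for Slc2a6, a lysosomal glucose transporter (adjusted p = 0.0447), and -0.88 for Narf (adjusted p = 0.046). All are edgeR values on the log2 scale. Slc2a6 was at 6.42, 8.06 and 8.47 CPM in day 1 WT and 12.0, 12.7 and 12.4 CPM in day 1 Bcl3-/-, and at 14.7, 14.2 and 14.1 CPM in day 3 WT and 13.0, 7.12 and 9.84 CPM in day 3 Bcl3-/-. Pdp2 was at 10.9, 12.3 and 14.1 CPM in day 1 WT and 14.2, 18.3 and 16.4 CPM in day 1 Bcl3-/-, and at 17.5, 16.3 and 17.2 CPM in day 3 WT and 13.5, 11.5 and 10.7 CPM in day 3 Bcl3-/-. For both genes the libraries labelled Bcl3-/- lay above WT on day 1 and below WT on day 3. Their mean levels rose over time in WT and fell in Bcl3-/-. Each of the 5 calls was lost without either of day 1 WT replicates 1 and 2, and in that analysis the number of called genes ranged from 1 to 475 as single libraries were left out.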

How the results depend on the processing

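Of the calls in the report, 2 of 10 on day 1, 4 of 7 on day 3, 9 of 18 over time in WT, 10 of 15 over time in Bcl3-/- and 0 of 2 in the test of the difference held in every alternative. Leaving out single libraries gave 1253 to 2905 called genes and 2 to 12 called members on day 1, 698 to 1879 called genes on day 3, 1 to 475 called genes and 0 to 2 called members in the test of the difference, and 6 to 15, 4 to 11 and 0 to 3 further pathway genes in those 3 comparisons. With only the 6 libraries of day 3, 814 genes, 4 members and 6 further genes were called. With the transcript-length index as a covariate, 4022 genes and 22 further genes were called on day 1, 2670 genes and 11 members on day 3, and 420 genes for the difference. That difference gave 552 genes with no count filter, 488 with DESeq2 and 292 with a replicate block by culture; 1 member was called with either the block by culture or by title number, 0 members with the FPKM filter, and 1 further gene with the title block or any FPKM setting. The cause of these shifts was not tested. Pairing by culture ended no other member's call, and for genotype the title number is shared without a stated pairing (correlations -0.0646 to 0.214); there the block cost the day 1 call of Pkm, whose value stayed -0.24.

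No called member changed direction in any alternative. Of the called further genes, 2 did, chosen here after their values were seen: over the alternatives Flt1 ran from -0.135 to 0.567 over time in WT, and Slc16a7 from -0.0052 to 0.619 over time in Bcl3-/-. The other directions that turned were of values not called. With 1 library left out, Gapdh ran from -0.233 to 0.184 by genotype on day 3 (0.184 without day 3 WT replicate 2, 0.109 without day 3 Bcl3-/- replicate 3), from -0.331 to 0.0117 over time in Bcl3-/- and from -0.0281 to 0.389 for the difference. Hif1a ran from -0.119 to 0.0185 over time in Bcl3-/- and was 0.00822 with the length index, and Vegfa ran from -0.024 to 0.31 for the difference.

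On CPM per kilobase of merged exons in place of FPKM the family shares changed level, and the groups kept their order except for Ldhb, whose day 1 Bcl3-/- and day 3 WT means lay within their SD and swapped: for WT and Bcl3-/- of day 1 followed by those of day 3, Ldhb took 3.01, 4.79, 4.80 and 7.73%, Hk2 24.1, 16.5, 13.0 and 12.1%, Pfkp 27.6, 22.7, 20.5 and 14.3%, and Aldoc 0.17, 0.601, 1.21 and 1.40%. The depth limits Ankrd37, Egln3, Aldoc and Car9 most, which had the fewest counts.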
